A study of Salmo salar with 30 samples.

Results

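The 200 array probes whose signal differed most between fish fed the same diet were examined in the distal intestine of Atlantic salmon, out of 14841 non-control probes on a 1-colour Agilent array. A probe's level is its log2 processed signal minus the log2 of the 75th percentile of signal on the same array, so that a level of 0 is the array's 75th percentile. A probe was eligible when it was well above background on all 30 arrays and its mean level with soybean meal lay within 1 log2 unit of its mean in control fish, which left 10466 probes. The 200 eligible probes with the highest median of the 6 within-diet standard deviations (SD) were taken as members. The measured spread therefore chose the members, and their spread is given as a description with no test.

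Each of the 30 fish had its own array, and each of the 6 diets was given to 5 of them. The control feed was high in fish meal. Corn gluten feed was given plain or with package 2, a supplement of β-glucan (0.1%), nucleotides (0.05%) and butyrate (0.01%). Soybean meal feed was given plain, with package 1, which holds arginine (1.5%) and butyrate (0.01%), or with package 2. Fish of 177 g were kept in 18 tanks for 67 days at 11.2 °C. With 30 fish and 18 tanks, some fish must have shared a tank, and where a tank received 1 feed these were fish of the same diet. The labels do not tie fish to tanks, so tank could not enter the fits. The p-values measure the spread between these fish and treat them as independent.

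The distal intestine of salmon absorbs nutrients and holds enterocytes, mucus-secreting goblet cells, smooth muscle, blood and many immune cells. Soybean meal is known to inflame it, and the response can be uneven between fish. RNA from a piece of gut is a mixture over these cells, and farmed salmon also differ in genotype. In such bulk RNA, fewer cells of a type and less RNA per cell cannot be told apart. The probe identifiers matched 0 genes of the reference table, so members are given by identifier and the tissue label was not checked against marker genes.

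Between 12491 and 13376 probes per array were well above background, and 0 spots of non-control probes were saturated on any array. The 75th percentile of signal lay between 551 and 948 across arrays. The arrays lay on 6 slides with 4 to 6 arrays each.

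The members' median spread between fish was about as large on every diet, whereas the spread of a single member could differ widely between diets. Ssa#S18849505, for example, had SDs from 0.34 to 2.73 over the 6 diets. The median within-diet SD of a member was 0.95 log2 units and ranged from 0.80 to 2.46, against a median of 0.22 over the eligible probes. By diet, the members' median SD was lowest with soybean meal plus package 2, at 0.91, and highest with plain soybean meal, at 1.02. The eligible probes' medians lay between 0.21 and 0.24. Plain soybean meal gave the highest of the 6 SDs for 58 members, and the control feed did so for 19. The same count was not made over eligible probes, whose median SD was also highest with plain soybean meal, at 0.24. Members that move together, such as the 32 of set A below, are not independent measurements. The mean of set A had its largest SD with plain soybean meal, at 1.675. An SD above 1 in all 6 diets was found for 7 members.

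The most variable probe was Ssa#S18849505, with a median SD of 2.46, followed by Ssa#KSS3392 with 2.14 and Ssa#CK886108 with 2.09. The last probe taken was Ssa#CK874358, with a median SD of 0.7956, and the first left out was Ssa#GRASP209156091, with 0.7955. The boundary thus falls within a continuous range of spread. Ssa#KSS3392 was dim in most fish, with a median signal of 42.4, and fell between levels of -7.03 and 0.22. Ssa#CK886108 was bright, with a median signal of 3673, and ran from -2.69 to 4.40.

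Members were dimmer than eligible probes as a whole. Their median mean level was -2.70, against -1.48 over all eligible probes. A mean level below -3 was found for 89 members, or 44.5%, against 31.0% of eligible probes. Identifiers that start with Omy# made up 36 members, or 18.0%, against 7.47% of eligible probes.

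A large spread on 5 diets went with a large spread on the 6th. When the 200 probes were chosen on 5 diets only, 165 to 177 of them were members. In the diet that the choice did not use, their median SD was 0.78 to 0.91, against 0.21 to 0.24 over eligible probes. Of each 200, 189 to 198 lay above the eligible median of that diet and 120 to 150 above its 95th percentile. Apart from eligibility, the fish of that diet had no part in the choice.

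Many members rose and fell in the same fish. After each diet's mean was subtracted from its fish, average-linkage clustering of 1 minus Pearson r over the 30 fish, split at a height of 0.4, placed 127 members in 9 sets of at least 5 probes, and 73 in none. The sets, lettered by size, held 32 (A), 31 (B), 15 (C), 10 (D), 9 (E), 9 (F), 8 (G), 7 (H) and 6 (I) probes. The median correlation between probes of a set was highest in set A, at 0.98, and lowest in set C, at 0.72. Clustering used these same correlations, so they describe the sets and test nothing.

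Set A was a tightly joined block of 32 probes whose level, the mean over its probes, split the fish of plain soybean meal far apart. The 5 soybean meal fish had set A levels of 1.96, -0.72, -1.63, 2.05 and -0.495. Fish 1 and 4 were high and the other 3 low, a range of 3.68 log2 units, or 12.9-fold. With soybean meal and package 1 the levels were 0.93, -1.67, 0.07, -1.45 and -1.83, so fish 1 and 3 were higher than the rest. With soybean meal and package 2 they were -0.62, -0.55, -1.33, -1.62 and -2.14, and all 5 fish were below 0.

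Control fish had set A levels of 0.68, 0.29, -1.20, 0.10 and -0.26. On corn gluten the levels were -0.30, -0.52, -0.995, -0.76 and -0.01, the narrowest range of the 6 diets at 0.985. On corn gluten with package 2 they were -1.05, -0.43, 0.14, 1.63 and -0.79, with fish 4 apart from the others. High and low fish thus occurred on several diets, and the ranges of all 6 diets overlapped.

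The probes of set A spanned mean levels of -5.38 to 4.03, with a median signal of 645. Within a fish, the median signal over the 32 probes ran from 218 in the lowest fish to 4192 in the highest. Its hub, the probe with the highest mean r to the rest, was Ssa#S45783689, at a mean r of 0.97. Outside the members, 96 other probes followed the set's level with r of at least 0.8, and 70 of them with r of at least 0.9. Of those 96, 84 were eligible probes of smaller spread. Whether several of these probes read the same transcript was not tested.

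Sets C, G, H and I were smaller. Set C (hub Ssa#STIR42753) had levels of 0.51, -0.215, -2.56, -1.04 and 0.14 in control fish, and of -2.05, -0.31, -0.94, 0.22 and -0.57 in soybean meal fish. With soybean meal and package 1 the 5 fish lay together, at -0.47, -0.78, -0.36, -0.80 and -0.81. Package 1 fish thus had an SD of 0.21 for set C, against SDs of 0.85 to 1.22 on the other 5 diets.

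On corn gluten the levels of set C were -2.50, -1.79, -0.03, -1.62 and -2.11, and with package 2 added -3.22, -1.23, -2.68, -0.79 and -2.15. Soybean meal with package 2 gave -2.67, -1.55, -0.53, -2.16 and -1.06. The corn gluten fish were low apart from fish 3, and each of these diets overlapped with the control.

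Set H (hub Ssa#GRASP209153085, 7 probes) was lowest with soybean meal and package 1, at a mean level of -3.45 ± 0.65 (SD, n = 5). It was highest on corn gluten with package 2, at -1.68 ± 0.58 (SD, n = 5). These 5 fish, at -2.35 to -1.01, lay close above the package 1 fish, at -4.10 to -2.50. The 2 diets were picked as the extremes of the 6, and this pair was not tested. Set I (hub Ssa#DW471462, 6 probes) ranged from -3.40 to 1.71 within soybean meal with package 2, the widest range of any set on any diet. For set G (hub Ssa#GRASP209154193, 8 probes), deviations from the diet means were set against those of array properties over the 30 fish. With the number of probes well above background on the array, r was 0.70, and with the array's 75th percentile 0.55. Among the other sets, the largest r with that number was 0.51, in set E, and with the percentile 0.43, in set I. The part of these array properties in the spread of the sets was not tested.

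Sets B, D, E and F each lay in a limited region of the array, which has 192 rows and 82 columns of spots. Set B (hub Ssa#KSS5017) lay in rows 2 to 125 and columns 6 to 42, and set D (hub Omy#S34312249) in rows 147 to 189 and columns 35 to 44. Set E (hub Omy#S18162700) lay in rows 78 to 161 and columns 29 to 35, and set F (hub Ssa#KSS2482) in rows 119 to 192 and columns 62 to 79. Probes of a set were a median of 15 spots apart in set D, 27.5 in E, 30.4 in F and 38.3 in B, against 67.6 between eligible probes. The probes of sets A, C and H were spread over the array, with medians of 60.4 to 71.7. Set G lay in rows 6 to 104 and columns 7 to 77, with a median of 51.4. Set I, with 6 probes, had a median of 36.1 spots and reached from row 58 to 169 and from column 3 to 77.

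Sets B, D, E and F varied within every diet as well. Set B levels lay between -5.06 and -3.54 in control fish and between -5.14 and -3.07 in soybean meal fish. On corn gluten with package 2, 4 of the 5 fish were high, between -3.35 and -2.97, and fish 4 was low at -4.97. Set F was narrow in control fish, at -4.03 to -3.39, and wider on the other diets, with a lowest level of -5.70 on corn gluten with package 2. Set D ran from -5.48 to -2.37 on that same diet, and its ranges on all 6 diets overlapped. Set E ran from -5.84 to -3.14 in soybean meal fish and from -5.54 to -4.28 with package 2 added.

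These 4 sets, called regional here, were dim, and dim probes around them moved with them. For each set, the neighbours were probes outside the members with a mean level below -3 and within 4 rows and 4 columns of a member. The mean deviation of these neighbours correlated with that of the set over the 30 fish with r = 0.92 in set B, 0.88 in D, 0.86 in E and 0.93 in F. In the other 5 sets, called scattered, the same r lay between -0.21 and 0.34. The neighbours' mean had an SD of 0.23 to 0.30, and the sets' mean one of 0.79 to 1.06. The neighbours' mean was taken over 238 to 841 probes, and the sets' probes were chosen for their spread. Nothing is therefore read from the smaller SD of the neighbours. Around the scattered sets, the neighbours' mean had an SD of 0.16 to 0.21. The level of the 4 sets thus followed that of other dim spots nearby, and the cause was not tested.

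Taken probe by probe, 58 of the 59 members of the regional sets had r of at least 0.5 with their own dim neighbours, with a median of 0.83. None of the 68 members of the scattered sets did, and their median was 0.12. Because the sets were divided by their r with dim neighbours, these counts describe the division and test nothing. Among the 73 members in no set, 7 did. The share over all members was 32.5%, against 16.2% of eligible probes. The dim eligible probes that were not members, 3151 in number, had a median r of 0.39 with their neighbours, against 0.74 in the 89 dim members.

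The median signal was 31.9 for members of the regional sets and 520 for those of the scattered sets. A mean level below -3 was found for 49 of the 59 and for 13 of the 68. With the local background around their spots, the regional sets had r between -0.20 and 0.27. The scattered sets had r between -0.095 and 0.21, and the part of the background was not tested. Among pairs of sets, B and E rose together (r = 0.645 over 30 fish) while B and F moved oppositely (r = -0.62). Of the scattered sets, G rose with C (r = 0.575) and with I (r = 0.51), whereas A had r of at most 0.35 in size with every other set.

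Levels of the members were compared between diets in a test across the whole array. Values of the 13577 probes that were well above background on at least 5 arrays were fitted with limma, with Benjamini-Hochberg adjustment over all of them and a threshold of 0.05. The moderated F test over the 6 diets called 15 of the 200 members, or 7.5%, against 39.5% of probes tested and 38.6% of eligible probes. The rule chose members for the spread that forms the error of this test and limited soybean meal against control, so nothing is read from the lower share. The same holds for the share of variance that lay between diets, a median of 21.5% in members and 35.1% over eligible probes.

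Without 1 fish the number called by the F test moved between 5 and 24. It was 7 without fish 1, 9 without fish 3 and 5 without fish 5 of corn gluten with package 2, and 24 without fish 5 of soybean meal with package 2. By set, it called 4 members of C, 3 of H, 2 of B, 1 each of E and G, and 4 of those in no set. In sets A, D, F and I it called 0, with 0 of their probes at an unadjusted p under 0.05. Probes of a set moved together, so they are not independent measurements.

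Soybean meal with a package was compared with corn gluten in fish that the limit of the rule had not used. The mean of the soybean meal diets with package 1 and package 2 was set against the mean of both corn gluten diets, with 10 fish on each side. The limma contrast called 15 of the 200 members, or 7.5%, with 7 higher and 8 lower in the soybean package diets. It called 36.5% of probes tested (37.3% of eligible probes), 17.9% being higher and 18.6% lower. The balance of directions moved with the scaling: with arrays scaled to their median, 11 members were higher and 8 lower, and over all probes tested 3031 were higher and 1888 lower, against 2432 and 2519 here. The median size of the difference was 0.57 log2 units in members and 0.23 in eligible probes, and the median standard error (SE) was 0.43 and 0.11. As in the F test, the rule chose members for the spread that forms this error, so nothing is read from their lower share. Of the 15 members, 9 were also called by the F test.

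Of set C, 5 of 15 probes were higher in the mean of the soybean package diets, with a median difference of 0.87 over the set. The 2 package diets differed: the mean level of set C in soybean meal was -0.64 with package 1 and -1.59 with package 2. It was -1.61 on corn gluten and -2.01 with package 2 added. Over all probes tested 36.5% were called, 17.9% being higher. The probes of set C moved together, so the 5 are not independent measurements. Of set H, 1 of 7 was lower, and of set B, 1 of 31. The mean level of set H in soybean meal was -3.45 with package 1 and -1.825 with package 2. On corn gluten it was -2.10, and -1.68 with package 2 added. In sets A, D, E, F, G and I, 0 were called, with 1 each in A and D lower and 1 in G higher at an unadjusted p under 0.05. Members in no set supplied 2 that were higher and 6 that were lower. Slides 4, 5 and 6 held fish of both sides, and these fish also enter the contrast, so the values within a slide are no independent check. Within them the mean level of set C was higher in the soybean package fish by 0.79 on slide 4, by 1.39 on slide 5 and by 0.06 on slide 6. Slide 4 held 2 soybean package and 3 corn fish, and slide 6 held 3 and 2. Slide 5 held a single soybean package fish, whose spread is unknown, and 3 corn fish.

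The largest rise among called members was that of Ssa#S18849505, the most variable probe. With soybean meal and package 1 its levels were 3.22, 3.42, 3.14, 3.74 and 3.93, and with package 2 they were 2.82, 3.13, 2.60, 3.76 and 3.19. On corn gluten they were 1.71, 2.95, -2.92, 1.85 and 2.815, and with package 2 added -3.41, 1.42, 1.51, 1.88 and -2.47. All 10 soybean package fish were high, and 3 of the 10 corn fish were far lower than any other of them.

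The difference of Ssa#S18849505 was 2.76 ± 0.90 (SE), with an adjusted p of 0.01734 in limma. Plain soybean meal fish, at -1.76, -0.96, 3.94, -2.14 and 2.46, held both high and low values. The second rise among called members was that of Ssa#GRASP223647899, by 1.65 ± 0.52 (SE), with an adjusted p of 0.01455 in limma. Its levels were 1.40, 1.79, 1.13, 1.40 and 1.39 with package 1 and -0.665, 0.48, 0.125, 1.94 and 1.49 with package 2 in soybean meal. On both corn diets it ran from -2.55 to 1.38, so the sides overlapped.

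Among the called members, the largest fall was that of Ssa#TC108548, by 1.92 ± 0.39 (SE) on the log2 scale, with an adjusted p of 0.0004082 in limma. Corn gluten fish had levels of -3.12, -2.82, -3.74, -3.32 and -3.32, and those with package 2 added -3.66, -3.55, -3.46, -3.895 and -2.63. Soybean package fish had -6.50, -6.50, -6.41, -3.92 and -5.87 with package 1 and -4.10, -4.84, -4.645, -3.51 and -6.48 with package 2. Fish 4 with package 2 lay within the corn range and the other 9 below it. Control fish, at -5.81, -5.83, -5.39, -5.68 and -3.34, were low except for fish 5. Plain soybean meal fish, at -5.32, -3.985, -6.07, -5.98 and -3.96, all lay below the corn range. Both corn diets thus had higher mean levels than every other diet, and the difference is not particular to the soybean package diets. The probe was dim, with a median signal of 40.7.

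The second fall among called members was that of Omy#BX886497, a probe of set B, by 1.68 ± 0.49 (SE) on the log2 scale, with an adjusted p of 0.009022 in limma. Its levels ran from -6.30 to -3.26 in soybean package fish and from -5.36 to -1.64 in corn fish, which overlap. Its r with its dim neighbours on the array was 0.90. With slide as a fixed block the difference was -1.42 and the adjusted p 0.05913, and that of Ssa#GRASP223647899 was 1.57 with an adjusted p of 0.057.

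No member was called in 4 further contrasts of the same limma fit. Corn gluten against control called 0 members, against 0.0663% of probes tested. An unadjusted p under 0.05 was found for 13 of the 200 members (5 to 19 without 1 fish) and for 822 of the 13577 probes tested. Package 1 within soybean meal called 0 members, against 0.0221%, with 10 members unadjusted and 1432 of the 13577 probes tested. The 10 became 43 without soybean meal fish 3, 42 without package 1 fish 1 and 5 without soybean meal fish 1 or fish 4. Package 2 within corn gluten called 0 members and 0 of all probes tested. Unadjusted, there were 20 members (10 to 28 without 1 fish) and 1029 of the 13577 probes tested. With slide as a fixed block these counts fell to 4 and 715.

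Package 2 within soybean meal called 0 members, against 1.24% of probes tested. An unadjusted p under 0.05 in limma was found for 43 of the 200 members, against 2983 of the 13577 probes tested, a similar share. With slide as a fixed block these counts fell to 29 and 1561, and 2 of all probes tested were called. Of the 43 members, 39 were lower with the package. Set A made up 29 of these 39. These counts hung on single fish: without soybean meal fish 4, 5 members had an unadjusted p under 0.05 and 1 probe of set A was among those lower, and without soybean meal fish 1 the counts were 16 and 1. Without package 2 fish 4 they were 15 and 11, and without package 2 fish 5 they were 24 and 2. The 32 probes of set A had a median difference of -1.52, which lay between -2.01 and -1.06 without 1 fish, and the lowest adjusted p among them was 0.09425 in limma. The set's mean level was -1.25 ± 0.68 (SD, n = 5) with package 2 and 0.23 ± 1.68 (SD, n = 5) with plain soybean meal. The 3 low soybean meal fish lay within the range of the package 2 fish or next to it. The 32 probes moved together, so they are not independent measurements.

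In corn gluten, package 2 gave set A a difference of 0.42 in mean level, against -1.485 in soybean meal. The difference of the 2 package effects called 0 members, with a lowest adjusted p of 0.06101 in limma, against 0.103% of probes tested. At an unadjusted p under 0.05 there were 52 of the 200 members (25 to 72 without 1 fish) and 2381 of the 13577 probes tested. With slide as a fixed block these counts fell to 9 and 916. This difference called 1 member without fish 2 of corn gluten, 3 without fish 4 of corn gluten with package 2, 4 without fish 2 of soybean meal and 6 without fish 5 of soybean meal with package 2. Slide 4 alone held fish of both soybean meal diets, with 2 fish on package 2 and a single plain soybean meal fish, whose spread is unknown; set A differed by -0.979 there.

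No member was called for slide. A limma F test of slide beside diet called 0 members and 0 of all probes tested. An unadjusted p under 0.05 was found for 24 of the 200 members (12 to 38 without 1 fish) and for 1020 of the 13577 probes tested. Of the 24 members, 20 belonged to the regional sets. Slide means took a median of 17.5% of the members' within-diet sum of squares, against 14.6% over eligible probes.

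In 6 members the fish fell into a low and a high group with a gap between them, a feature looked for after the values were seen. The gap was at least 1.5 log2 units with at least 3 fish on either side, and 7 of the 10466 eligible probes had one. In Ssa#S35677833 the gap was 2.52 log2 units, or 5.72-fold, with 6 fish low and 24 high. Ssa#S18849505 had a gap of 2.38 and 7 low fish, 3 of them on plain soybean meal and 0 on either soybean package diet. In Ssa#S32002772 the gap of 2.24 set 6 high fish apart from 24 low ones. This probe was dim, with a median signal of 47.5, and had r = 0.57 with its dim neighbours on the array.

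Ssa#S23659857 had 8 low fish below a gap of 2.12, and Ssa#S35676574 had 7 below a gap of 1.83. Ssa#S50369622, a member of set I, had 3 low fish below a gap of 1.61. In Ssa#S35677833, 3 of the low fish were on corn gluten with package 2, and in Ssa#S23659857, 3 were on soybean meal with package 2. Low and high fish occurred together on 2 to 5 diets for each probe. The fish of the smaller group differed from probe to probe, since any pair of these probes shared 0 to 3 of them. In Ssa#S18849505 the median signal was 112 in the low fish and 5366 in the high fish.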

How the data were processed

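Arrays of 30 fish were quantified with Agilent Feature Extraction as 1-colour arrays, per the file headers. The deposited processed signal is a linear intensity from which Feature Extraction had taken the background of that array; nothing was done to make arrays comparable. The flags used (control spot, well above background, saturated, outlier) were deposited in the same files. The authors also deposited a table of intensity values. Each of its columns was set against the array's scanner values: it equalled the median of the spot, less that of its local background, times 0.522 to 0.764, within 1 unit for 99.0% to 99.8% of values, so it is linear and not centred. Its column sums were nearly the same, between 19861896 and 19874825, so the factor had scaled the arrays to a similar total. The table's column medians were 73 to 101, it had 14191 blank cells, and it served as an alternative.

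Signals were scaled to each array's 75th percentile and taken to log2 here; no log2 values of the authors were used. In R 4.3.3, limma 3.58.1 was fitted to 13577 probes, without a trend, with diet as the only factor. Alternatives were normexp background correction with an offset of 50 (on spot medians, since spot means were not in the files used here), quantile and median scaling, the authors' table, outlier spots left out, other filters on dim probes, robust fits, blocks for slide, fish number and consecutive fish, and each fish left out. The fits and the clustering were tested on simulated data. Members, sets and tests were chosen with earlier results of these data known. Probes were named by a rule: the 3 most variable, each set's hub, the probes at the boundary and the 2 largest rises and falls, with the 6 gapped probes named after their values were seen. The number of arrays limits the precision. Fish with the same number in different diets deviated with a mean correlation of -0.02 to 0.09 over the probes tested. For fish number 5, which had the highest mean, r ran from -0.18 to 0.384 and 8 of 15 pairs exceeded 0.1. The main fit therefore did not pair fish by number, and whether fish of a number share anything else was not tested.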

Additional observations from a re-analysis of the deposited data

Results flagged for a closer look

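In groups of 5 fish, 12 of 150 checks by Dixon's criterion found a fish far from the other 4. In independent checks chance gives about 1 in 20. These checks overlap, because sets and probes of the same sets were both checked, and all probes were members chosen for their spread. Nothing is therefore read from the number found. The level of set B was -4.97 in fish 4 on corn gluten with package 2, where the other 4 lay between -3.35 and -2.97. In the same fish its probes Ssa#KSS5017, at -2.79, and Omy#BX886497, at -4.54, also stood apart. The level of set F was -5.31 in fish 5 on soybean meal with package 1 and -5.64 in fish 5 on soybean meal with package 2, and its hub Ssa#KSS2482 was -4.53 in the latter. Omy#S34312249, the hub of set D, was -4.505 in control fish 4. These sets lie in limited regions of the array, and the cause was not tested.

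Ssa#S18849505 stood apart at -3.32 in control fish 4 and at -2.92 in fish 3 on corn gluten. Ssa#CK886108 was -2.69 in fish 1 on plain soybean meal, where the other 4 lay between 1.64 and 3.02. Ssa#TC108548 was high at -3.34 in control fish 5 and at -3.92 in fish 4 on soybean meal with package 1.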

How the results depend on the processing

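Which probes were members depended on the processing: 58% of the 200 remained with normexp background correction, and 51.5% without the limit on soybean meal against control. Among probes with a mean level of at least -3 only, an alternative chosen after seeing the data, 55.5% remained. That share was fixed in advance by the 89 members below -3, so nothing is read from it. Leaving out each fish in turn kept 81.5% to 97% and the other alternatives 75% to 100%. The members' diet share of variance was 19.8% to 24.2% without 1 fish, and 122 to 131 members fell in sets. Set A kept 29 to 32 of its probes together in every clustering alternative run, whereas set I kept 1 to 6 of its 6 (1 without fish 5 of soybean meal with package 2), set C 9 to 15 of its 15 and set E 5 to 9 of its 9 (5 without fish 1 of corn gluten). Set C fell to 9 on leaving out several single fish and also at a tree height of 0.3 and with quantile normalization. Of the larger regional sets, B kept 22 to 31 of its 31 probes, with 22 in the same kinds of alternative. Set F kept 5 to 9 of its 9, with 5 at a tree height of 0.3. The F test called 5 to 24 members without 1 fish and 10 to 20 in the other alternatives, and the soybean package contrast called 12 to 22 and 14 to 21. Corn gluten against control, each package within its feed and the test of slide called 0 to 0 members without 1 fish and 0 in every other alternative run. The difference of the package 2 effects called 0 to 6 members without 1 fish, the 6 without fish 5 of soybean meal with package 2, and 2 with quantile normalization. With fish number as a replicate block the F test called 16 members and the soybean package contrast 15. There the difference of the package 2 effects called 1 member and 63 of the probes tested, and the other contrasts called 0 members. With slide as a fixed block, Ssa#CK874358 differed by -0.848 with an adjusted p of 0.1177 in limma, while Ssa#STIR42753 differed by 1.23 with an adjusted p of 0.01443 and Ssa#GRASP209153085 by -1.33 with an adjusted p of 0.007409. The number of fish per diet limits all tests, and dim members lie closest to background.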
